A study of Rattus norvegicus with 415 samples.

Results

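ENSRNOG00000060437 and ENSRNOG00000038999 are 2 of 18358 genes whose RNA was sequenced from adipose tissue of outbred rats, Rattus norvegicus. They were chosen by their values: a few samples of ENSRNOG00000060437 lay near 0, and a few samples of ENSRNOG00000038999 lay several-fold above the rest. The study mapped metabolic traits and asked which genes with local genetic effects on expression may act on them. All samples formed 1 group, adipose tissue from rats aged 17 weeks, and the labels used here name no treatment, strain, sex or genotype. Titles consist of a number and a suffix that the labels do not explain. Of the title numbers, 89 stood on more than 1 sample, and 2 samples with the same number are called a same-number pair. Gaps above 500 in the numbering separated block 1 (57215 to 59114, 39 samples), block 2 (60213 to 63056) and block 3 (63906 to 64305). The labels do not say which samples come from separate animals, so p-values measure only the spread between these samples, which may be technical.

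In an outbred stock the animals differ in the variants they carry, and a variant can be present in only some of them. A variant next to a gene, such as a deletion or a change in a regulatory sequence, can remove the gene's RNA or raise it, and carriers can then form a separate mode of expression. These are statements of background, and no genotype was used here. The deposited table identifies genes by number alone, and no identifier was matched to a name, a position or a sequence, so the function of the 2 genes and of their correlates is not given. For the same reason the tissue could not be checked against its marker genes. In bulk tissue, fewer cells of a type and less RNA per cell cannot be told apart.

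Values were FPKM, reads scaled by gene length and by a factor for the sample. This factor matched the median ratio of a sample's reads to each gene's geometric mean, over genes above 0 in every sample. It is not the depth, which is the total of reads. Whole reads were recovered from the FPKM values, between 2139163 and 6248214 per sample with a median of 4602134. Gene lengths were worked out from the same values and not taken from an annotation. By these, ENSRNOG00000060437 was 3398 bp long, and it held a median of 95 reads per sample in its common mode. ENSRNOG00000038999 was 2724 bp long and held a median of 233.5 reads there. By mean FPKM, a value per length, the genes ranked 11355th and 6683rd of 18358. Both modes were set apart by the widest gap between neighbouring values of log2(FPKM + 1) on the rare side of the median that left at least 3 samples and at most 20% of samples in the rare mode. Since the modes chose the genes, their levels are a description with no test.

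ENSRNOG00000060437 was nearly absent from 6 samples, 1.45% of all, and present in every other sample. In this low mode FPKM lay between 0 and 0.346, and the median was 0.109. Sample 63956_5 held 0 reads of 5359041, which allows up to 3 reads or 0.163 FPKM by the usual limit for a count of 0, and up to 3.69 reads by the two-sided 95% Poisson interval used below. Sample 64305_6 held 1 read, samples 63956_4 and 64034_3 held 2 reads each, sample 64251_3 held 4 and sample 64305_5 held 6. These 6 libraries were not shallow: their depths ran from 4739368 to 5631255 reads. Their median depth was 5111253.5 reads, against 4592948 in the common mode, and the shallowest of them was deeper than 60.2% of all samples. A sample with the same factor at the common median would have held between 99.7 and 121.6 reads. The 95% Poisson interval of the highest of them, 6 reads, reached 13.1 reads, while the lowest count in the common mode was 53. These intervals cover counting error only.

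In the common mode, ENSRNOG00000060437 ran from 4.09 to 12.98 FPKM with a median of 6.14 and a mean of 6.21 ± 1.03 (SD, over all samples outside the low mode). The 5th and 95th percentiles were 4.85 and 7.74. The 3 values just inside the limit were 0.117, 0.234 and 0.346 FPKM, and the 3 just outside were 4.09, 4.10 and 4.22. No sample lay between, so that the highest value of the low mode was 5.63% of the common median and the lowest of the common mode 66.6%. No group of samples therefore sat at an intermediate level. The gap spanned 1.92 on the log2(FPKM + 1) scale, or 10.04 SDs of the common mode. The median gene had a gap of 0.430 SDs under the same rule, applied on both sides of the median with the wider gap taken. The gap of ENSRNOG00000060437 was the widest of the 16131 genes kept, those that exceeded 1 FPKM in 20% of samples or more. This is the property the gene was chosen for. The variance of the common mode was 2.60 times the counting variance.

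**Figure D1:**
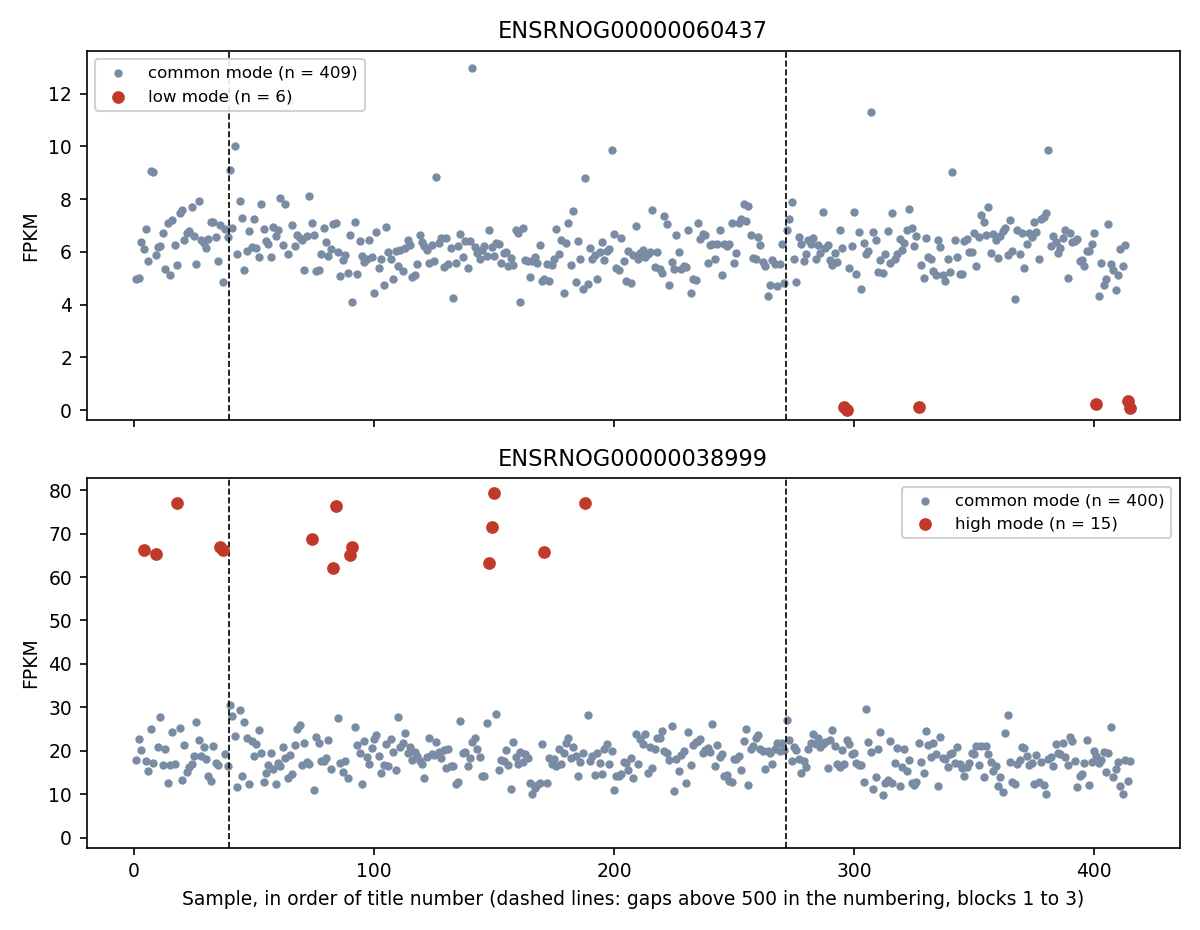
FPKM of ENSRNOG00000060437 (top) and ENSRNOG00000038999 (bottom) in each sample, in order of title number; grey points are the common mode, red points the rare mode, and dashed lines mark the gaps between blocks. The 6 low samples of the upper gene all lie in block 3, and the 15 high samples of the lower gene lie in blocks 1 and 2.

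ENSRNOG00000038999 stood at about 3.63 times its usual level in 15 samples, 3.61% of all. The high mode ran from 62.1 to 79.3 FPKM with a median of 66.99 and a mean of 69.2 ± 5.61 (SD, n = 15). The common mode ran from 9.77 to 30.4 FPKM with a median of 18.4 and a mean of 18.5 ± 3.95 (SD, n = 400). Inside the limit the nearest values were 62.1, 63.1 and 65.1 FPKM, and outside it 30.4, 29.7 and 29.5, so the modes did not overlap. The high samples lay between 3.37 and 4.30 times the common median, and the highest common sample at 1.65 times. No sample was found between 1.65 and 3.37 times the common median. The gap was 1.01 on the log2(FPKM + 1) scale, or 3.36 SDs of the common mode. In those units 27 of 16131 genes, this gene included, had a gap at least as wide on either side of the median.

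The high mode was tighter than the common mode relative to its level. The coefficient of variation was 8.10% in the high mode and 21.3% in the common mode. The variance was 5.35 times the counting variance in the high mode and 10.2 times in the common mode. Reads of ENSRNOG00000038999 in the high samples ran from 732 to 953 with a median of 805. In the common samples the median was 233.5.

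The rare modes of the genes fell in different samples. No sample was in both (0 samples). In the 6 low samples of ENSRNOG00000060437, ENSRNOG00000038999 ran from 12.9 to 22.5 FPKM with a median of 18.2, within its common mode. In the 15 high samples of ENSRNOG00000038999, ENSRNOG00000060437 ran from 4.10 to 8.81 FPKM with a median of 6.18. Over the samples in the common mode of both genes, their r was 0.0248, given as a description.

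Samples with the same title number mostly shared the mode. For ENSRNOG00000060437, the 6 low samples stood on 4 title numbers. Both samples of number 63956 were low (0.117 and 0 FPKM), and so were both samples of number 64305 (0.346 and 0.0616 FPKM). The other low samples, 64034_3 and 64251_3, were the only samples of their numbers. No pair held 1 low and 1 common sample (0 pairs), so every low sample with a same-number partner had a low partner. Over all same-number pairs, 2 were low in both samples, where shuffled title numbers gave a mean of 0.0194 (one-sided permutation p = 6e-05, Benjamini-Hochberg adjusted p = 6e-05 over 4 tests of sharing and resemblance). Shuffling only within blocks gave a mean of 0.0663 (permutation p = 0.00118), and shuffling within windows of 20 neighbouring samples a mean of 0.198 (permutation p = 0.00952). The low samples tested here are those that chose the gene, and these p-values do not account for a choice among genes.

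For ENSRNOG00000038999, the 15 high samples stood on 11 title numbers, and 7 of these numbers had no second sample. All 3 samples of number 62608 were high, at 63.1, 71.6 and 79.3 FPKM. Both samples of number 62322 were high, at 62.1 and 76.4 FPKM, as were both of number 62335, at 65.1 and 66.99 FPKM. Number 58041 was the exception, with 1 sample at 65.3 and the other at 17.2 FPKM. That second value lay well inside the common mode, close to its median. High in both samples were 5 pairs, of which 3 came from number 62608 and share its samples, and 1 pair was mixed. Shuffled title numbers gave a mean of 0.127 such pairs (one-sided permutation p = 1e-05, adjusted p = 2e-05 over the same 4 tests). Within blocks the mean was 0.203 (permutation p = 1e-05), and within windows of 20 samples it was 0.333 (permutation p = 5e-05). The value 1e-05 is the smallest these permutations can give. Here too the samples tested chose the gene, and a choice among genes is not accounted for.

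**Figure D2:**
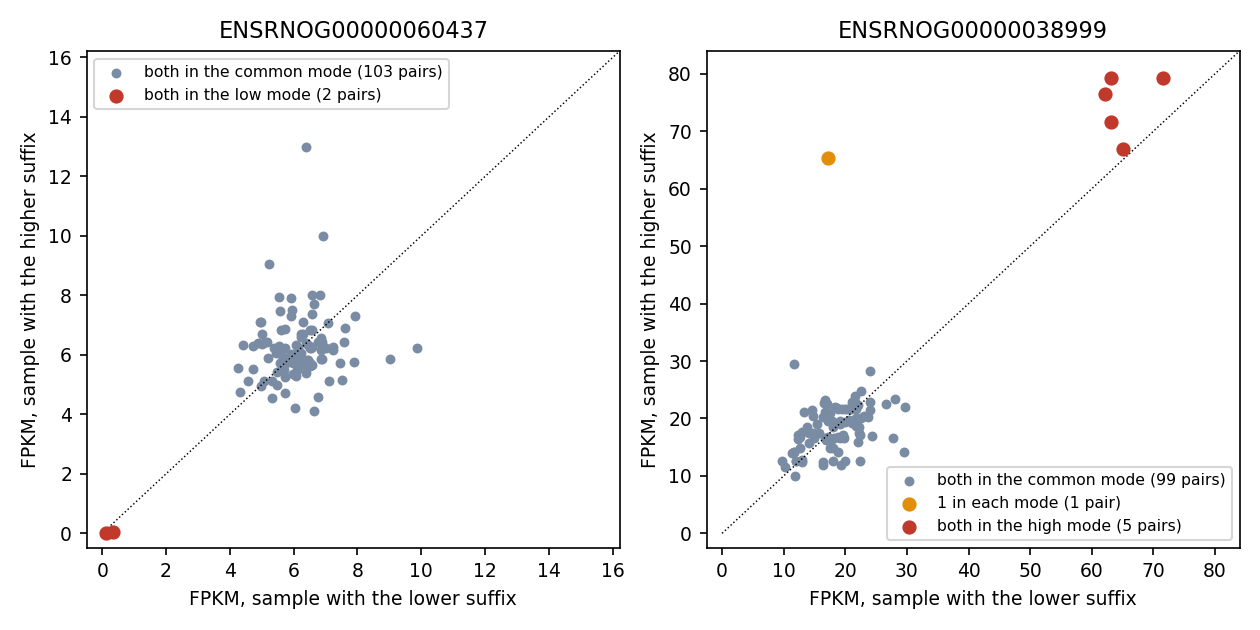
FPKM of the 2 samples of each same-number pair, the lower suffix on the horizontal axis and the higher on the vertical axis; the dotted line marks equal values. For ENSRNOG00000060437 (left) the 2 red pairs are low in both samples; for ENSRNOG00000038999 (right) 5 red pairs are high in both and 1 orange pair has 1 sample in each mode.

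On the whole range of values, same-number samples resembled each other in both genes. Resemblance is the mean product of the deviations of the 2 samples of a pair, divided by their mean square, and is 1 for equal pairs. It was 0.806 for ENSRNOG00000060437 (one-sided permutation p = 2e-05, adjusted p = 2.67e-05) and 0.742 for ENSRNOG00000038999 (permutation p = 1e-05, adjusted p = 2e-05). The median over the 16131 genes kept was 0.228 and the 95th percentile 0.503. These values were the highest and the second highest of the genes kept, and the permutation p-values do not account for a choice among genes. They include the rare samples that chose the genes.

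Resemblance was also computed without the rare modes. In the pairs with both samples in the common mode, the resemblance of ENSRNOG00000060437 was 0.117 (permutation p = 0.108), under the median of 0.226 over all genes in the same pairs. A limma F test over title numbers did not call it in the common mode (adjusted p = 0.186), where it called 56.4% of genes. The resemblance of ENSRNOG00000038999 in 99 such pairs was 0.436 (permutation p = 1e-05), against 0.742 with the high samples. Over all genes in these pairs the median was 0.239 and the 95th percentile 0.510, and 2145 of 16131 genes were at least as high. The F test called it (limma, adjusted p = 8.707e-06), as it did 58% of genes. Whether the genes differ from each other in this was not tested. Within block 1, where only 9 pairs stood, the resemblance over both modes was -0.466 and -0.0743 (permutation p = 0.915 and 0.505). Within block 2 it was 0.231 and 0.864 over 49 pairs (permutation p = 0.0485 and 1e-05), and within block 3 it was 0.907 and 0.549 over 47 pairs (permutation p = 6e-05 and 4e-05), each in the order ENSRNOG00000060437 and ENSRNOG00000038999. All pairs low in both samples lie in block 3, and all pairs high in both lie in block 2. The values 0.907 and 0.864 thus include the samples that chose the genes, and the blocks are not compared by them. Blocks 1 and 2 held no low sample and block 3 no high sample.

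The place of the rare modes in the numbering is given as a description. All 6 low samples of ENSRNOG00000060437 were in block 3, 4.17% of that block, and blocks 1 and 2 held 0. Of the 15 high samples of ENSRNOG00000038999, 5 were among the 39 samples of block 1 (12.8%) and 10 in block 2 (4.31%), while block 3 held 0. By title suffix, 2, 1, 2 and 1 low samples had the suffixes 3, 4, 5 and 6, which is 1.14%, 0.562%, 5.71% and 4.17% of the samples with each. High samples numbered 4, 6, 1 and 4 in the same order, or 2.29%, 3.37%, 2.86% and 16.7%. With so few samples in the rare modes, no order is read from these shares.

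Along the rank of the title number, only the common modes were tested, since the rare values chose the genes. Over the full span of the numbering, the common mode of ENSRNOG00000038999 fell by 0.14 on the log2(FPKM + 1) scale (SE 0.05, limma adjusted p = 0.0110). That of ENSRNOG00000060437 changed by -0.07 and was not called (SE 0.03, limma adjusted p = 0.0698). These fits, and the F test over blocks below, took same-number samples as independent. Their resemblance in the common mode was 0.436 for ENSRNOG00000038999, so its SE and p may be too small. The common mode was not fitted with 1 sample per title number. A call was no rarity: in the samples tested for ENSRNOG00000038999, 61.4% of genes were called, 31.1% upward and 30.2% downward, and in those for ENSRNOG00000060437 60.6%, 30.7% upward and 30% downward. With the rare samples the slopes were -0.37 and -0.23, as a description. Slopes within blocks are also per full span of the numbering, of which each block covers only a part. Within blocks 1, 2 and 3 the common-mode slope of ENSRNOG00000038999 was -1.78, -0.04 and -0.70 (SE 1.78, 0.12 and 0.25, limma adjusted p = 0.674, 0.794 and 0.0670). In those fits 0%, 57% and 6.53% of all genes were called, so a missing call in blocks 1 and 3 is read no further. The common-mode slope of ENSRNOG00000060437 within blocks was 0.63, -0.25 and -0.15 (SE 1.10, 0.08 and 0.15, limma adjusted p = 0.837, 0.00430 and 0.605), where 0%, 56.6% and 5.48% of genes were called. At an unadjusted p under 0.05, limma counted 1667 and 1526 genes in block 1, in the same order of genes.

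Over the 3 blocks, the mean FPKM of ENSRNOG00000060437 was 6.53 ± 0.972 (SD, n = 39), 6.14 ± 1.08 (SD) and 5.97 ± 1.53 (SD), with the low samples included. Its common-mode medians were 6.49, 6.002 and 6.22 FPKM. Mean FPKM of ENSRNOG00000038999 was 25.3 ± 17.2, 21.1 ± 11.1 and 17.9 ± 3.90 (SD), with the high samples included, and its common-mode medians were 17.95, 18.9 and 17.7. In the common mode a limma F test over blocks called neither gene (adjusted p = 0.0970 for ENSRNOG00000060437 and 0.0988 for ENSRNOG00000038999), while it called 52.2% and 53.5% of all genes in the same samples.

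The level of ENSRNOG00000038999 was related to depth, and that of ENSRNOG00000060437 less clearly. Only these 2 genes were examined for this, so the share of all genes related to depth is not known. The relation is therefore not read as particular to either gene. The permutations took same-number samples as independent, so their p-values may be too small. In the common mode of ENSRNOG00000038999, log2(FPKM + 1) and log2 reads per sample had r = -0.314 and rho = -0.272 (n = 400, two-sided permutation p = 1e-05 for both, adjusted p = 4.5e-05 over 9 relations), and r = -0.275 after the 2 most extreme depths were left out. Within its blocks r was -0.407, -0.388 and -0.110 and rho -0.442, -0.348 and -0.0955 (permutation p of r = 0.0164, 1e-05 and 0.188, of rho = 0.00961, 1e-05 and 0.253). The relation was therefore not detected within block 3. Among the 15 high samples r was -0.585 and rho -0.604 (permutation p = 0.0226 and 0.0194, adjusted p = 0.0407 and 0.0277), but r was -0.184 after the 2 most extreme depths were left out, so it rests on those samples. In the common mode of ENSRNOG00000060437, r was 0.00987 (permutation p = 0.842, adjusted p = 0.842) and rho 0.163 (permutation p = 0.00102, adjusted p = 0.00229). Its r was 0.0753 after the same step. Within its blocks r was 0.113, -0.116 and 0.292 and rho 0.368, 0.0645 and 0.311 (permutation p of r = 0.490, 0.0782 and 6.1e-04, of rho = 0.0216, 0.329 and 2.6e-04).

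The reads of ENSRNOG00000038999 grew less than in proportion to the sample's factor, which is not the same as its depth. Its log2 reads were regressed on the log2 of this factor, where a slope of 1 is proportion. The slope was 0.533 in the common mode and 0.502 in the high mode. The slope of ENSRNOG00000060437 in its common mode was 1.02. The slopes are descriptions without an SE, and that of the high mode rests on 15 samples. They are given for these 2 genes alone, so they are not read as particular to either. ENSRNOG00000038999 held a median of 0.0857 reads per bp in the common mode and 0.296 in the high mode, and ENSRNOG00000060437 0.0280 reads per bp in its common mode. The fold between the modes of ENSRNOG00000038999 is a ratio of these FPKM values, and the part that depth takes in it was not tested. The depths of the high samples, from 3631352 to 4882976 reads, lay within those of the whole set.

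The genes most like each of these were sought by Pearson's r on log2(FPKM + 1) over all samples, among the other 16130 genes kept. The coefficient over all samples pools both modes and is led by the rare samples, so r within the common mode stands beside it. All are descriptions without a p, and the samples share depth and numbering.

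ENSRNOG00000062152 stood apart as the gene most like ENSRNOG00000060437, with r = 0.713 over all samples. The next gene, ENSRNOG00000003792, had 0.333 in size, and the middle 98% of genes lay between -0.231 and 0.269. ENSRNOG00000062152 was 837 bp long with a mean of 20.6 reads per sample. It held 0 reads in samples 63956_5 and 64305_6, 1 read in samples 63956_4, 64034_3 and 64251_3, and 2 reads in sample 64305_5. Its FPKM was at most 0.468 in these 6 samples, and from 1.44 to 13.8 with a median of 5.25 in the other samples, where the lowest count was 5 reads. The 6 samples low for one gene were thus the 6 lowest for the other. Among the 18357 other genes of the table, this was the 1 gene with all 6 samples below all others, and 0 genes had all 6 above. Within the common mode the genes were less alike, with r = 0.363 (0.363, 0.343 and 0.386 in blocks 1, 2 and 3), and ENSRNOG00000062152 ranked 1433rd there. By Spearman's rho over all samples, which gives the 6 low samples little weight, it had 0.289 and ranked 1084th. Counting error at a mean of 20.6 reads can lower both coefficients and ranks, and how far was not tested. The first gene by rho was ENSRNOG00000026965 with -0.494, named after its value was seen. Whether the genes overlap, neighbour each other or share reads is not given in the files.

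**Figure D3:**
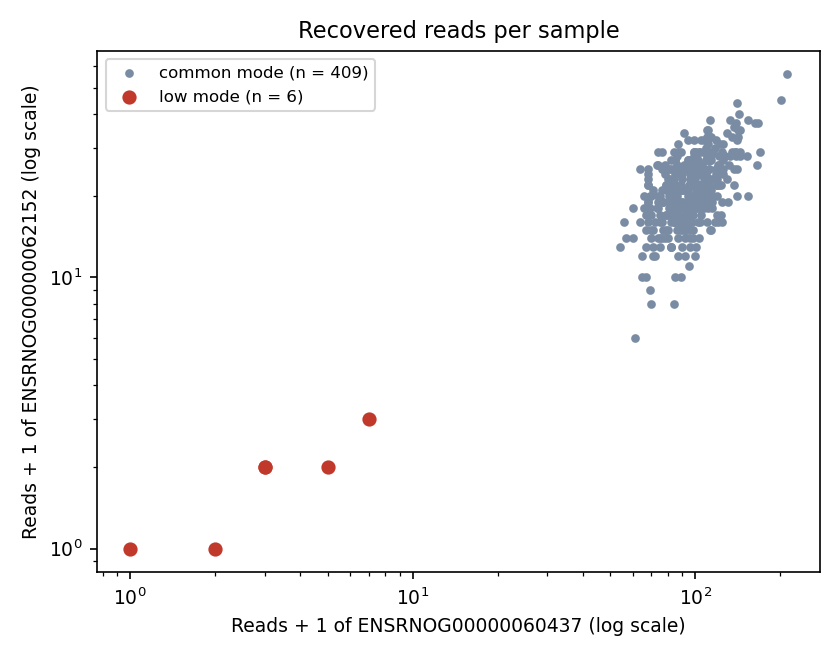
Recovered reads + 1 of ENSRNOG00000060437 (horizontal, log scale) and of ENSRNOG00000062152 (vertical, log scale), 1 point per sample; 2 of the 6 low samples coincide. The 6 red samples have at most 6 and 2 reads, and the grey samples at least 53 and 5.

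The other genes near ENSRNOG00000060437 did not separate the low samples from the rest. ENSRNOG00000002916 had the most negative r over all samples, -0.332, and -0.439 in the common mode. It ran from 30.4 to 49.7 FPKM with a median of 39.9 in the 6 low samples, against a common median of 31.3 and a common range from 11.3 to 51.1, so the ranges overlapped and 5 of 6 lay above the common median. ENSRNOG00000053769 followed among the negative ones, with r = -0.324. It ran from 6.34 to 9.36 FPKM in the low samples, against a median of 5.48 and a range from 1.47 to 10.6 in the others, and all 6 lay above the upper quartile of 6.31. Such one-sided positions were common: in 15.4% of genes kept, all 6 low samples lay on the same side of the common median. The low samples were also deeper than most samples, and the part of depth in these positions was not tested. Within the common mode the first gene was ENSRNOG00000030247, with r = 0.628 (0.456, 0.675 and 0.552 within blocks). Its FPKM in the low samples, from 27.6 to 29.7, lay within its common range from 23.1 to 40.6, and 5 of 6 lay above its common median of 28.03. The 10 first genes within the common mode had r between 0.570 and 0.628 in size, 8 of them positive. In that mode 0.831% of genes lay beyond 0.5 in size, and 1 of the 10 first genes was shared with the 10 first over all samples. By Spearman's rho in the same samples only 0.0186% of genes lay beyond 0.5, and ENSRNOG00000030247 had 0.484.

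For ENSRNOG00000038999, ENSRNOG00000030712 was the gene most like it over all samples, with r = 0.629, and it was second within the common mode with r = 0.710 (0.735, 0.692 and 0.773 in blocks 1, 2 and 3). In the 15 high samples ENSRNOG00000030712 ran from 33.1 to 61.6 FPKM with a median of 45.04. All 15 lay above its median of 31.6 FPKM in the common samples, and 14 above the upper quartile of 36.2. The ranges overlapped, since the common samples reached 59.2 FPKM. ENSRNOG00000030712 itself was split into 2 clusters among the common samples by a fit of 2 normal components, chosen after the plot was seen. The number of clusters was set in advance of the fit and was not tested. The lower cluster held 28% of them, from 8.76 to 21.6 FPKM, and the upper 72%, from 22.7 to 59.2. The median of ENSRNOG00000038999 was 14.3 FPKM in the lower and 19.7 in the upper cluster. The r between the genes was -0.115 in the lower cluster, 0.706 in the upper cluster and 0.738 among the 15 high samples. None of the high samples was in the range of the lower cluster.

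**Figure D4:**
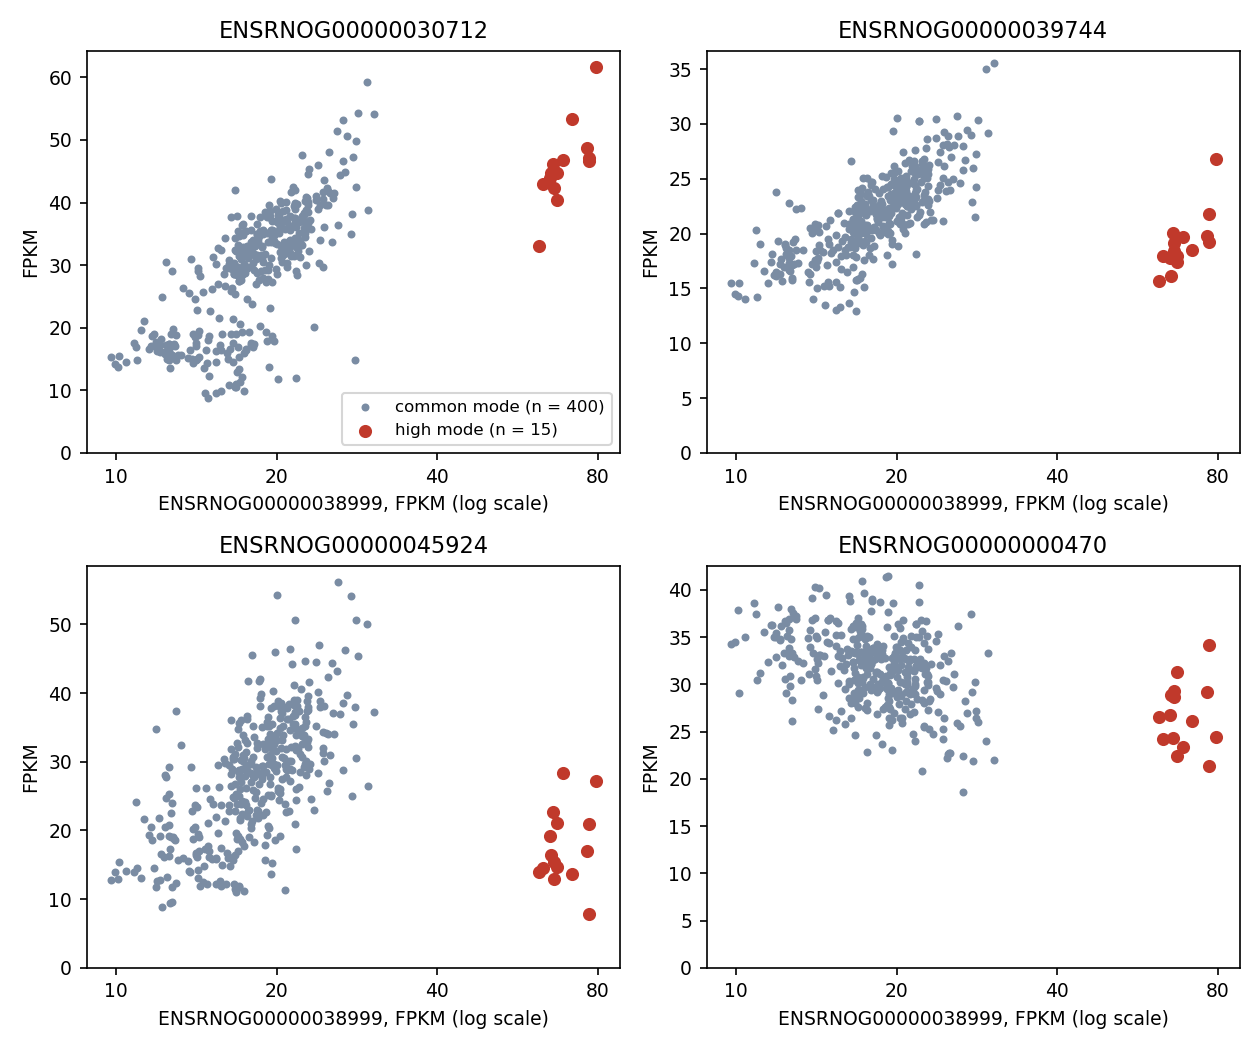
FPKM of 4 genes (vertical axes) against ENSRNOG00000038999 (horizontal, log scale), 1 point per sample; grey points are its 400 common samples and red points its 15 high samples. The high samples lie from 33.1 to 61.6 FPKM for ENSRNOG00000030712, in the range of its upper cluster and slightly above it, and lie low for ENSRNOG00000039744 and ENSRNOG00000045924 although these rise with ENSRNOG00000038999 among the grey points.

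Other genes tracked ENSRNOG00000038999 within the common mode and did not continue into the high mode. ENSRNOG00000039744 was first within the common mode, with r = 0.761 (0.639, 0.790 and 0.768 within blocks), and had 0.388 over all samples. In the 15 high samples it ran from 15.7 to 26.8 FPKM with a median of 18.5, and 14 of them lay below its common median of 21.8. ENSRNOG00000045924 was the third in the common mode, with r = 0.664. It ran from 7.86 to 28.4 FPKM with a median of 16.5 in the high samples, all 15 below its common median of 28.5. All of the 10 first genes in the common mode (r from 0.548 to 0.761) were positively related to ENSRNOG00000038999, and 8 of the 10 had a median in the high samples below that in the common samples. These 10 genes were also related to each other, with a median r of 0.628 over their pairs in the common mode. Beyond 0.5 in size stood 14 genes in the common mode, and 5 of its 10 first genes were also among the 10 first over all samples.

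Of the 10 first genes over all samples, 9 were positive. The exception, ENSRNOG00000000470, was second over all samples, with r = -0.435, and had -0.404 in the common mode. It ran from 21.3 to 34.2 FPKM with a median of 26.5 in the high samples, and 14 of 15 lay below its common median of 31.8. ENSRNOG00000029386, with r = 0.410 over all samples and 0.561 in the common mode, was listed at 0 in some common samples, whose lower quartile was 0.4003 FPKM. The high samples ran from 2.59 to 12.3 FPKM, 9 of 15 below the common median of 5.09. ENSRNOG00000048951 was sixth over all samples with r = 0.346 and only 0.170 in the common mode. It ran from 25.5 to 41.8 FPKM in the high samples, all 15 above its upper quartile of 22.7 FPKM in the common samples, whose range from 7.56 to 43.4 overlapped. No other gene of the table had all 15 high samples above or below all common samples (0 in each direction). All 15 lay above the common median in 12 of 16130 genes and below it in 6.

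**Figure D5:**
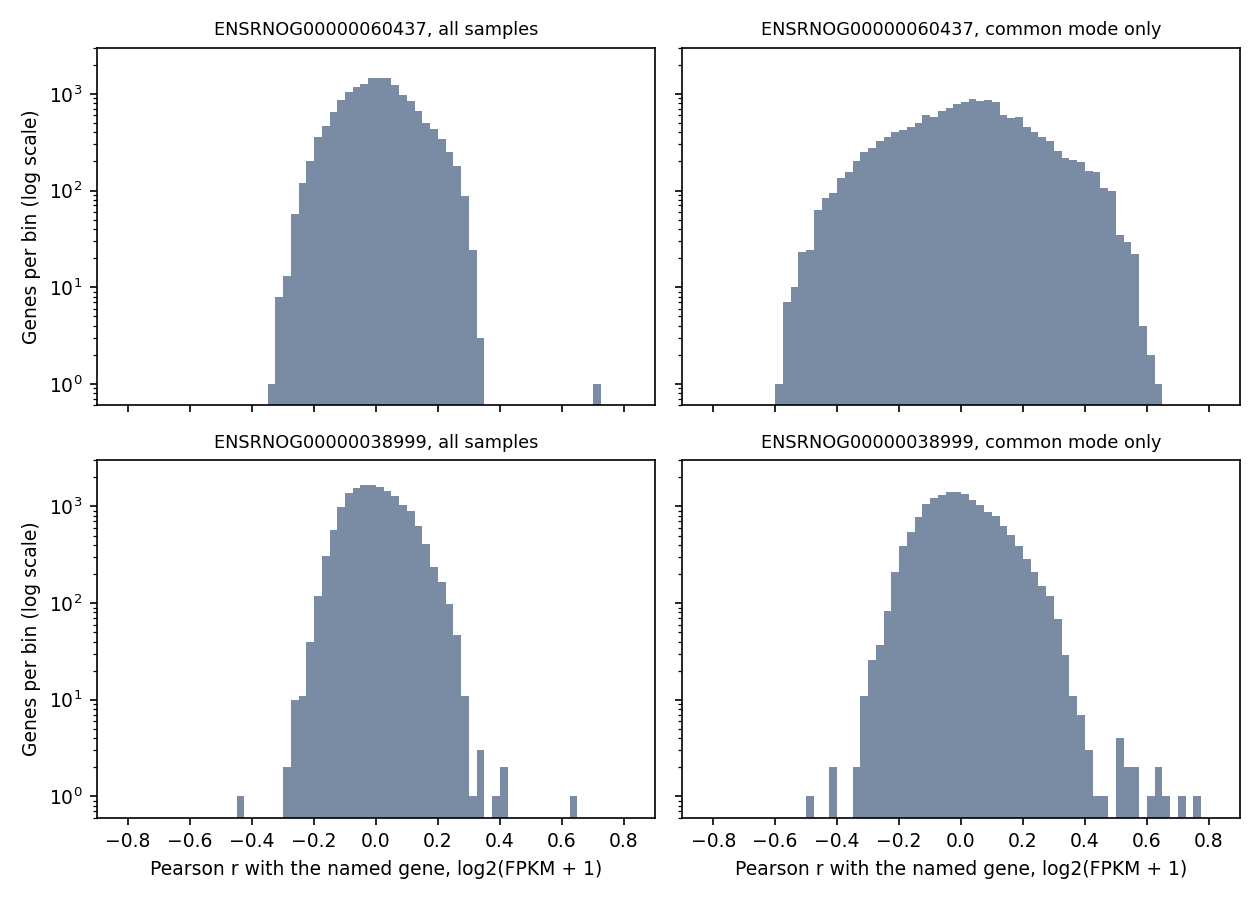
Number of genes (vertical, log scale) by Pearson's r with ENSRNOG00000060437 (top) and ENSRNOG00000038999 (bottom), over all samples (left) and the common mode (right). A lone gene at 0.713 stands apart at the top left; at the bottom right 14 genes lie beyond 0.5 in size.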

How the data were processed

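RNA from snap-frozen adipose tissue was sequenced on 1 platform in single-end mode, which the labels' protocols state. STAR, Picard, featureCounts and DESeq2 are named in the submitters' processing notes, with no role. The genome build and annotation are not given in the sources used here. The deposited values are FPKM, a unit worked out from the values, since no header states it. For each gene, a value of 1 read was sought that gave whole reads after a factor for the sample. It gave whole reads for 100% of values (tolerance 0.001). Gene lengths were worked out afterwards from those reads, so the whole reads do not check the lengths. No column was unmatched (0).

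Genes that exceeded 1 FPKM in 20% of samples or more were kept, and log2(FPKM + 1) was analysed. Trends, blocks and title numbers were tested with limma 3.58.1 in R 4.3.3, with Benjamini-Hochberg adjustment and a threshold of 0.05. These tests were planned on all samples; p-values are given only for the common modes, because the rare values chose the genes. Permutation tests used 100000 permutations (Python 3.11.15, numpy 2.4.6, scipy 1.17.1). Named genes were taken from the 10 first by r over all samples and the 10 first within the common mode. The members, the tests and the lists were chosen with earlier results of these data known. Alternatives were other mode limits, pseudocounts, filters, normalizations, subsets of samples, voom and Spearman's rho. Neighbouring genes, gene families and cell type markers were planned and not analysed, because 0 of 18358 identifiers were matched to a name in the reference table.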

Additional observations from a re-analysis of the deposited data

How the results depend on the processing

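Under the alternatives, 86 values stayed on the same side of the threshold with the same sign or moved little, 13 no longer passed, 6 moved further and 4 changed sign. These counts include fits on all samples, which hold the rare values that chose the genes. The number of samples in the rare mode stayed at 6 and 15 with a pseudocount of 0.1, 2 normal components and a fixed limit. In samples with at least 3500000 reads the modes were not set anew. Every rare sample exceeded that depth, so the counts of 6 and 15 could not change there. The other limits set the same samples apart, so sharing under them repeats the main test and adds to the values that stayed the same. Sharing passed in each alternative. Without title number 63956 or 64305 it rested on 1 pair for ENSRNOG00000060437 (permutation p = 0.00753 and 0.00714), and without 62608 on 2 pairs for ENSRNOG00000038999 (permutation p = 0.00198); these settings, the values within blocks for resemblance, the common mode for title numbers and the common mode within blocks for trends were chosen after the data were seen. Common-mode samples alone lowered values for ENSRNOG00000060437: resemblance to 0.117, the trend to -0.066, F over blocks to 2.88 and F over title numbers to 1.26. For ENSRNOG00000038999 they lowered F over blocks to 2.84, resemblance to 0.436, the trend to -0.14 and F over title numbers to 2.82; the last 3 still passed. Within block 1 resemblance was -0.466 and -0.0743. Trends within blocks are per full span of the numbering. They were 0.63 and -0.92 in block 1, -0.28 in block 2 for ENSRNOG00000038999, and -0.48 and -0.70 in block 3. In the common mode within blocks 1, 2 and 3 the trends were 0.63, -0.25 and -0.15 for ENSRNOG00000060437, of which the second passed, and -1.78, -0.041 and -0.70 for ENSRNOG00000038999. The cause was not tested. Genes called for a trend numbered 1053 within block 3 and 0 within block 1 (limma; 1526 at an unadjusted p under 0.05), against 9885. The likeness of ENSRNOG00000062152 was 0.289 by rho, 0.363 in the common mode and 0.837 with a pseudocount of 0.1, and that of ENSRNOG00000030712 was 0.783 by rho. No paired analysis was possible because all samples are in 1 group and no groups are compared. With 1 sample per title number, rare samples included, the trends were -0.20 and -0.34, given as a description. Depth limits the low mode, which holds 15 reads in all.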

Other observations

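Whole samples were compared by Pearson's r over the 16131 genes kept, each centred on its mean, as a description. The 13 pairs of low samples of ENSRNOG00000060437 with different title numbers had a median r of 0.161, between -0.0727 and 0.404, where all pairs of block 3, which holds these samples, with different title numbers had a median of 0.0123 and a 95th percentile of 0.194. These low samples also share a high depth, whose part in their likeness was not tested. The 50 pairs of high samples of ENSRNOG00000038999 with different title numbers and the same block had a median r of -0.00346, between -0.195 and 0.264, against a median of -0.00739 over all such pairs of blocks 1 and 2. In the lower cluster of ENSRNOG00000030712 stood 13, 62 and 37 samples of blocks 1, 2 and 3. Among the 99 same-number pairs in the common mode of ENSRNOG00000038999, 17 were in that lower cluster with both samples and 27 with 1 sample.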
